A study of Mus musculus with 12 samples.

Results

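Matrix metalloproteinases are zinc enzymes that cut collagens, elastin and other proteins of the extracellular matrix, and they are secreted as inactive precursors that other proteases cut open. Tissue inhibitors of metalloproteinases block the active enzymes, and the urokinase receptor gathers plasmin formation at the cell surface, so that proteolysis is held close to the cell. Macrophages secrete several of these enzymes when they move through tissue and when they meet bacterial products. The genes described here are 9 genes of this system, namely Mmp9, Mmp12, Mmp13, Mmp8, Mmp19, Timp2, Adam8, Plaur and Thbs1. They were taken by symbol from a table of 38739 symbols, and all 9 were listed. The set was chosen by their levels in these same 12 samples, Mmp9 being among the genes that differed between genotypes with LPS. The values of the 9 genes are therefore a description, and the adjusted p-values beside them are not independent evidence.

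RNA of bone marrow-derived macrophages (BMDMs) was sequenced from wild-type (WT) mice and from mice without cGAS (cGAS-/-), the sensor of cytosolic double-stranded DNA. Cells received medium only (untreated, UT) or lipopolysaccharide (LPS) of E. coli 026:B6, with 3 samples in each of the 4 groups. According to the methods the mice were male and 8 weeks old, both the cGAS-/- mice and the purchased WT mice were of C57BL/6J background, and LPS was given at 150 ng/mL for 24 h. The sample labels instead give 100 ng/mL for 1 h, and their extraction step names neutrophils, so the length of the stimulation is uncertain. The 3 samples of a group are described as technical replicates, and p-values then measure only the spread between these samples.

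Values are transcript abundances (TPM), taken as the mean over the transcripts listed for a symbol, so levels of different genes are not comparable with each other. Fold changes are on the log2(TPM + 1) scale, which understates the change of genes with low values. They come from 1 limma fit over all 12 samples and 11887 genes that passed a filter on low values, and genes counted as called had an adjusted p (Benjamini-Hochberg) under 0.05. All 9 genes passed that filter. No counting error is given, as read numbers are unknown. WT LPS replicate 3 stood apart. Its values summed to 709802 against 447189 to 503156 in the other 11 samples, and the ferritin pseudogene Fth-ps3 held 31.7% of its total against 6.24% to 17.7% elsewhere. Protein-coding genes held 18.5% of it against 39.7% to 54.4%. The main results that use WT LPS are also given without this sample, for genes other than the 9 only where its absence changes a call or moves a value by over 1.5 times. Cgas, the deleted gene, reached at least 1.19 and at most 3.25 TPM in WT cells, against 0.0703 to 0.291 TPM in cGAS-/- cells. Of 10 macrophage markers 7 were listed and none was at 0, with Lyz2 at 15701 TPM or more in every sample. In bulk RNA, fewer cells of a type and less RNA per cell cannot be told apart.

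Mmp9, the gelatinase B gene (chr2:164780439-164797771, plus strand, GRCm39), had, with LPS, the largest difference between genotypes of the 9 genes. It measured 2.84, 4.09 and 3.77 TPM in WT UT and 4.18, 4.06 and 0.744 TPM in WT LPS. In cGAS-/- cells it measured 0.465, 0.518 and 0.766 TPM without LPS and 51.8, 48.9 and 47.6 TPM with LPS. All 3 cGAS-/- LPS samples were above every other sample, all 3 cGAS-/- UT samples were below every WT UT sample, and the WT groups overlapped. The means were 49.4 ± 2.15 TPM (SD, n = 3) in cGAS-/- LPS and 3.0 ± 1.95 TPM (SD, n = 3) in WT LPS.

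With LPS, the log2 level of Mmp9 in cGAS-/- cells exceeded that in WT by 3.82 (SE 0.36, adjusted p = 3.19e-04 by limma), and by 3.30 without WT LPS replicate 3. The difference was not called when only those 6 samples were fitted. LPS against UT gave a log2 change of 5.00 (SE 0.36, adjusted p = 6.6e-06) in cGAS-/- cells, where the mean with LPS was 84.8 times the UT mean. In WT cells the change was -0.34 (SE 0.36, adjusted p = 0.487), and it turned to 0.18 without WT LPS replicate 3. The difference between these LPS effects, the interaction term, was 5.34 (SE 0.51, adjusted p = 9.49e-04), and 4.82 without that sample. It was called under every alternative run, within 3.41 to 6.76. In UT cells Mmp9 was at -1.52 in cGAS-/- against WT (SE 0.36, adjusted p = 0.069), which was not called. It was called as lower in 7 of 22 alternatives, among them each fit without 1 WT LPS sample.

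**Figure D1:**
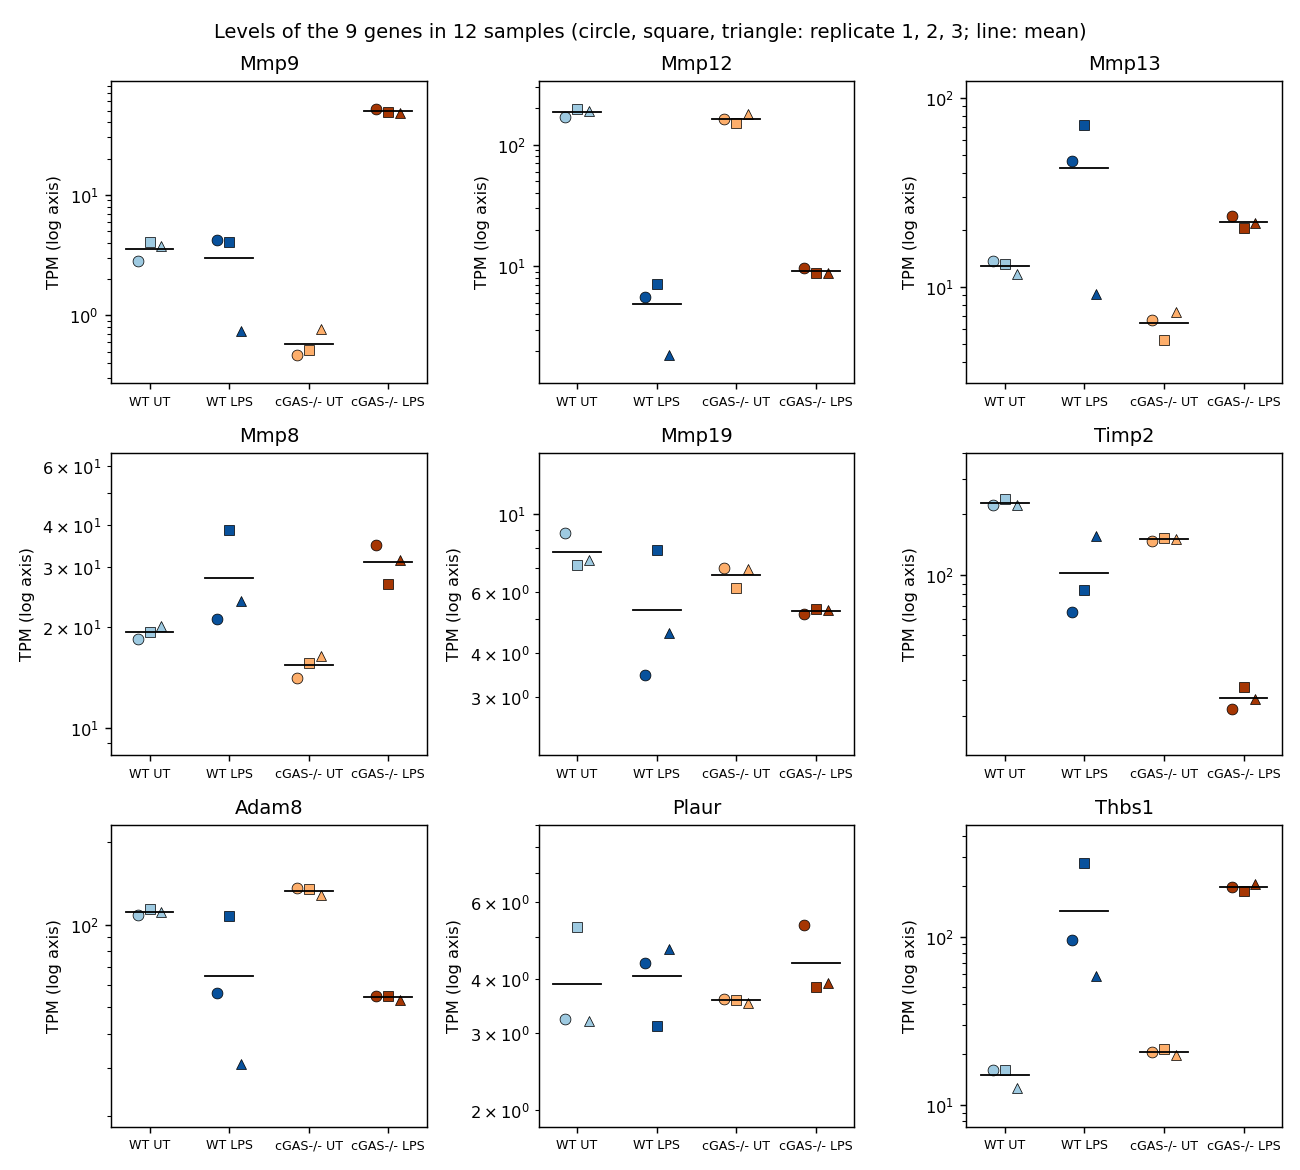
TPM of the 9 genes in each of the 12 samples, on a log axis of its own for each gene, by genotype and treatment; markers are single samples and lines are group means. Mmp9 lies between 47.6 and 51.8 TPM in the cGAS-/- LPS samples and at or under 4.18 TPM in the others, and Mmp12 falls with LPS in both genotypes.

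Mmp12, macrophage elastase (chr9:7344381-7369499, plus strand), fell with LPS in both genotypes. It measured 170, 196 and 191 TPM in WT UT and 161, 152 and 178 TPM in cGAS-/- UT. With LPS it measured 5.59, 7.18 and 1.85 TPM in WT cells and 9.67, 8.79 and 8.85 TPM in cGAS-/- cells. The treated samples lay far below the untreated ones without overlap, and the 3 cGAS-/- LPS samples lay above the 3 WT LPS samples. The log2 change was -5.12 (SE 0.34, adjusted p = 4.39e-06) in WT and -4.03 (SE 0.34, adjusted p = 1.79e-05) in cGAS-/- cells, called under every alternative. Without WT LPS replicate 3 the WT change was -4.67. Means fell 38.1-fold and 18.0-fold. With LPS the difference between genotypes was 0.92 (SE 0.34, adjusted p = 0.199), or 0.46 without WT LPS replicate 3. It was called only without WT LPS replicate 2, at 1.22. The interaction was 1.09 (SE 0.48, adjusted p = 0.438), and 0.64, likewise not called, without WT LPS replicate 3. Of the longest Mmp12 transcript, 4.25% was shared with 5 other genes. The longest transcripts of the other 8 genes shared no stretch with another gene at 97% identity over 31 bases or more. Their shorter transcripts were not compared.

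Mmp13, a collagenase that cuts fibrillar collagen (chr9:7272514-7283331, plus strand), measured 13.7, 13.2 and 11.6 TPM in WT UT and 46.1, 72.1 and 9.17 TPM in WT LPS. It measured 6.71, 5.25 and 7.38 TPM in cGAS-/- UT and 23.6, 20.4 and 21.7 TPM in cGAS-/- LPS. The cGAS-/- groups were apart by treatment, whereas WT LPS replicate 3 lay below all WT UT samples and the other 2 above them. In neither genotype was the LPS change called. It was 1.24 in WT (SE 0.56, adjusted p = 0.114) and 1.63 in cGAS-/- cells (SE 0.56, adjusted p = 0.0811). Both were called without WT LPS replicate 3, at 2.09 and 1.63, and with all samples under median-ratio scaling (adjusted p = 0.00213 and 0.00347). In all they were called in 4 and 6 of 22 alternatives, with quantile normalization and sample weights among them. With LPS the genotypes differed by -0.52 (SE 0.56, adjusted p = 0.607). That difference was -1.36 and called without WT LPS replicate 3, but 0.062 when WT LPS replicate 2 was left out, so its sign rested on single WT libraries. All 3 cGAS-/- UT samples were below the WT UT samples, but the difference of -0.90 was not called (SE 0.56, adjusted p = 0.96). It was called in 3 of 22 alternatives, among them the fit without WT LPS replicate 3 (adjusted p = 0.0142).

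Mmp8, the collagenase that neutrophils store in granules (chr9:7558457-7568487, plus strand), measured 18.3, 19.2 and 20.0 TPM in WT UT and 21.0, 38.7 and 23.8 TPM in WT LPS. It measured 14.1, 15.6 and 16.4 TPM in cGAS-/- UT and 35.1, 26.7 and 31.6 TPM in cGAS-/- LPS. Within each genotype the treated samples were above the untreated ones, and the LPS groups of the genotypes overlapped. The rise in cGAS-/- cells was 0.97 (SE 0.25, adjusted p = 0.0264), a call lost in 7 of 22 alternatives, 6 of which left out a cGAS-/- sample. In WT cells the change was 0.47 (SE 0.25, adjusted p = 0.182) and was called when samples were scaled by median ratios, at 1.25, and with quantile normalization. Leaving out WT LPS replicate 3 gave 0.55, and leaving out replicate 2 gave 0.21, neither called. Mmp19 (chr10:128626773-128636695, plus strand), a metalloproteinase outside the collagenase and gelatinase groups, measured 7.14 to 8.83 TPM in WT UT, 3.47, 7.90 and 4.58 TPM in WT LPS, 6.14 to 7.03 TPM in cGAS-/- UT and 5.17 to 5.37 TPM in cGAS-/- LPS. With all samples it was not called in any comparison. Its change with LPS in WT was -0.53 (SE 0.25, adjusted p = 0.127), which was -0.81 and called without WT LPS replicate 2, -0.47 without replicate 3, and 0.17 with median-ratio scaling.

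Since Mmp8 and Mmp9 are also known from neutrophils, the neutrophil list is set beside them. Of 14 neutrophil markers 12 were listed, and their summed level was 160 to 237 TPM in WT UT, 118 to 509 TPM in WT LPS, 73.1 to 152 TPM in cGAS-/- UT and 419 to 467 TPM in cGAS-/- LPS. Lcn2 alone, which macrophages also make, held 348 to 377 TPM of the sum in cGAS-/- LPS. Csf3r was at 14.8 to 19.3 TPM in cGAS-/- UT and 23.5 to 30.1 TPM in cGAS-/- LPS, and Camp at 0.650 TPM or less and 2.76 to 4.92 TPM, in both cases without overlap. S100a8 was at 21.5 to 50.1 TPM in cGAS-/- UT and 23.3 to 29.1 TPM in cGAS-/- LPS, which overlapped, and S100a9 was at 30.6 to 72.3 TPM and 17.6 to 26.8 TPM. Padi4 went from 0.498 to 0.823 TPM to 0.158 to 0.263 TPM, and Ltf from 0.114 to 0.173 TPM to 0.0300 to 0.0674 TPM. Cxcr2, at 0.0813 to 0.268 TPM with LPS, was also lower without overlap, and Ngp, at 0.867 to 1.38 TPM with LPS, overlapped its UT samples. Between the untreated genotypes, where Mmp9 and Mmp8 measured less in every cGAS-/- than in any WT sample, Ngp was at 24.1 to 32.3 TPM in WT and 0.657 to 3.13 TPM in cGAS-/- cells. Ltf was at 1.14 to 1.25 TPM in WT UT and Padi4 at 2.82 to 3.23 TPM, also above their cGAS-/- UT samples without overlap. Camp, Elane and Mpo were likewise above theirs. Csf3r went the other way, at 11.6 to 14.6 TPM in WT UT, below its cGAS-/- UT samples without overlap. Lcn2, S100a8, S100a9, Cxcr2 and Prtn3 overlapped. In WT LPS, Ngp was at 2.2 to 9.9 TPM, Padi4 at 1.04 to 2.48 TPM and Ltf at 0.124 to 0.413 TPM. These were above their cGAS-/- LPS samples without overlap. Lcn2, at 49.1 to 126 TPM in WT LPS, lay below its cGAS-/- LPS samples. The other listed neutrophil markers overlapped between genotypes with LPS, with Csf3r at 28.6 to 49.0 TPM in WT LPS. The granule genes Elane, Prtn3 and Mpo were at or under 0.226 TPM in all cGAS-/- LPS samples. A part of neutrophils in the Mmp8 and Mmp9 levels was otherwise not tested.

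Timp2, an inhibitor of metalloproteinases (chr11:118191887-118246566, minus strand), measured 221, 237 and 221 TPM in WT UT and 65.6, 83.7 and 156 TPM in WT LPS. It measured 147, 153 and 150 TPM in cGAS-/- UT and 21.7, 27.7 and 24.2 TPM in cGAS-/- LPS. The cGAS-/- LPS samples were the lowest of all, and in WT LPS replicate 3 Timp2 was the highest of its group, while Mmp9, Mmp12 and Mmp13 were the lowest of theirs. With LPS it was lower in cGAS-/- than in WT cells, with a log2 difference of -1.92 (SE 0.30, adjusted p = 0.0073) and of -1.56 without WT LPS replicate 3. That call was lost with the 6 samples alone and without cGAS-/- LPS replicate 1. In UT cells all 3 cGAS-/- samples lay below the WT samples, at -0.59 (SE 0.30, adjusted p = 0.743), which was called in 3 of 22 alternatives, among them the fit without WT LPS replicate 3. With LPS it changed by -2.57 (SE 0.30, adjusted p = 1.52e-04) in cGAS-/- cells, under every alternative. The WT change was -1.24 (SE 0.30, adjusted p = 0.0115), and -1.60 without WT LPS replicate 3, but was not called with median-ratio scaling, at -0.43, or with the 6 samples alone. The interaction of -1.33 (SE 0.42, adjusted p = 0.247) was not called with all samples, and was called without WT LPS replicate 3, at -0.98.

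**Figure D2:**
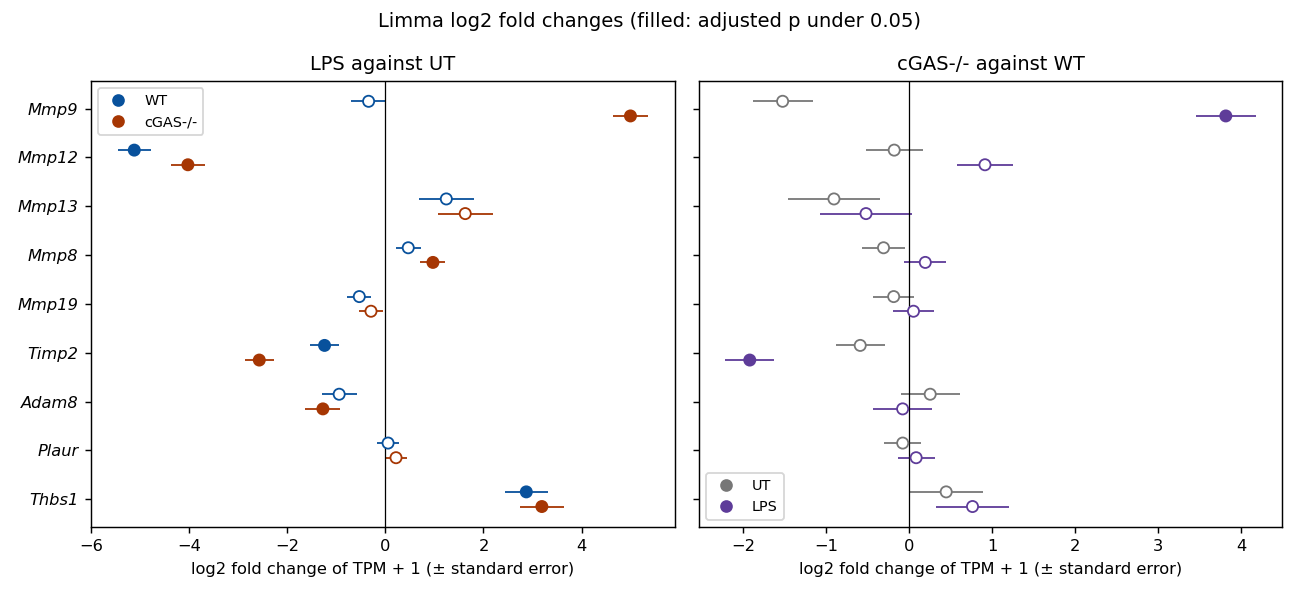
Limma log2 fold changes of TPM + 1 for the 9 genes with their standard errors, LPS against UT in each genotype on the left and cGAS-/- against WT in each treatment on the right; filled points have an adjusted p under 0.05. Mmp9 with LPS (3.82) and Timp2 with LPS (-1.92) are the filled points on the right. Mmp12, Thbs1 and Timp2 are filled in both genotypes on the left.

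Adam8, a membrane protease of the ADAM family that sheds cell surface proteins (chr7:139558845-139572475, minus strand), measured 109, 114 and 111 TPM in WT UT, 56.2, 107 and 31.1 TPM in WT LPS, 136, 134 and 128 TPM in cGAS-/- UT and 55.1, 55.0 and 53.0 TPM in cGAS-/- LPS. Every LPS sample was below the UT samples of its genotype, WT LPS replicate 2 only just. The fall was -1.27 (SE 0.36, adjusted p = 0.0369) in cGAS-/- cells, a call lost in 10 of 22 alternatives. In WT it was -0.94 (SE 0.36, adjusted p = 0.0701), and -0.51 without WT LPS replicate 3. It was called without WT LPS replicate 2, at -1.39, and with sample weights, and was -0.14 with median-ratio scaling. Plaur, the urokinase receptor (chr7:24161875-24175394, plus strand), lay between 3.20 and 5.26 TPM in WT UT, 3.11 and 4.68 TPM in WT LPS, 3.52 and 3.60 TPM in cGAS-/- UT and 3.82 and 5.31 TPM in cGAS-/- LPS, and was not called in any comparison, with or without WT LPS replicate 3.

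Thbs1, thrombospondin, a matrix-associated glycoprotein that can activate TGF-beta (chr2:117941974-117957616, plus strand), rose with LPS in both genotypes. It measured 16.2, 16.1 and 12.6 TPM in WT UT and 96.0, 273 and 58.2 TPM in WT LPS. It measured 20.6, 21.5 and 19.9 TPM in cGAS-/- UT and 197, 188 and 206 TPM in cGAS-/- LPS. Treated and untreated samples did not overlap, and WT LPS spread from below to above the cGAS-/- LPS samples. The log2 change was 2.87 (SE 0.44, adjusted p = 9.29e-04) in WT, 3.36 without WT LPS replicate 3, and 3.19 (SE 0.44, adjusted p = 5.61e-04) in cGAS-/- cells, called under every alternative. The ratio of means was 9.53 in cGAS-/- cells. In WT it was 9.52, but 5.15 without WT LPS replicate 2, where the log2 change was 2.25. The genotypes with LPS differed by 0.77 (SE 0.44, adjusted p = 0.356), by 0.28 without WT LPS replicate 3 and by 1.38, called, without WT LPS replicate 2.

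Counted together, with LPS 1 of the 9 genes was called higher in cGAS-/- than in WT cells and 1 lower, beside 1.36% and 1.00% of all tested genes. In UT cells limma called none, beside 0.252% higher and 1.58% lower, and 1 (Mmp9) had an unadjusted p under 0.05. LPS in WT cells gave 1 higher and 2 lower, beside 4.31% and 23.3%. With median-ratio scaling these became 3 higher and 1 lower, beside 993 and 1337 of all 11887. LPS in cGAS-/- cells gave 3 higher and 3 lower, beside 4.76% and 9.06%. The interaction gave 1 higher and 0 lower, beside 0.732% and 0.168%. Without WT LPS replicate 3 the numbers higher and lower were 1 and 2 between genotypes with LPS, 0 and 3 in UT, 2 and 2 for LPS in WT, 4 and 3 for LPS in cGAS-/- cells and 1 and 1 for the interaction. Leaving out WT LPS replicate 2 gave 3 and 1, 0 and 1, 1 and 4, 4 and 3, and 1 and 0 in the same order. For all 11887 genes they were 456 and 528, 137 and 496, 982 and 3148, 1093 and 2570, and 347 and 195 without replicate 3. Without replicate 2 they were 2839 and 473, 62 and 279, 663 and 5122, 752 and 1676, and 1351 and 145. Because the set was chosen on these contrasts, nothing is read from these counts. The median log2 change of all tested genes was not at 0. It was -0.46 for LPS in WT, -0.20 for LPS in cGAS-/- cells, 0.20 between genotypes with LPS, -0.04 in UT and 0.27 for the interaction, and median-ratio scaling brought each to between -0.02 and 0.003. Those that use WT LPS rested on single libraries. Without WT LPS replicate 3 the median was -0.29 for LPS in WT, 0.039 between genotypes with LPS and 0.082 for the interaction, and without replicate 2 it was -0.62, 0.36 and 0.44. Relative to the median of all samples, Mmp9 was at 3.62 between genotypes with LPS and at 5.07 for the interaction, and relative to that without replicate 3 it was at 3.26 and 4.74. Timp2 was at -2.12 between genotypes with LPS, and at -1.60 without replicate 3. For LPS in WT Mmp12 was at -4.66, Thbs1 at 3.33 and Timp2 at -0.78, and without replicate 3 they were at -4.37, 3.65 and -1.30.

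A ratio of 2 genes within a library does not depend on the scaling of that library. Because TPM was averaged over transcripts, only changes of such a ratio between samples can be read. The Mmp13 to Mmp12 ratio was 0.0611 to 0.0807 in WT UT and 8.26, 10.0 and 4.97 in WT LPS, and it was 0.0346 to 0.0415 in cGAS-/- UT and 2.32 to 2.45 in cGAS-/- LPS. All WT LPS libraries, replicate 3 included, were above all cGAS-/- LPS libraries. The Mmp9 to Timp2 ratio was 0.0129 to 0.0173 in WT UT and 0.0638, 0.0485 and 0.00477 in WT LPS. In cGAS-/- cells it was 0.00316 to 0.00510 without LPS and 2.39, 1.76 and 1.97 with LPS. Here WT LPS replicate 3 fell among the cGAS-/- UT libraries, and the cGAS-/- LPS libraries were above all others.

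**Figure D3:**
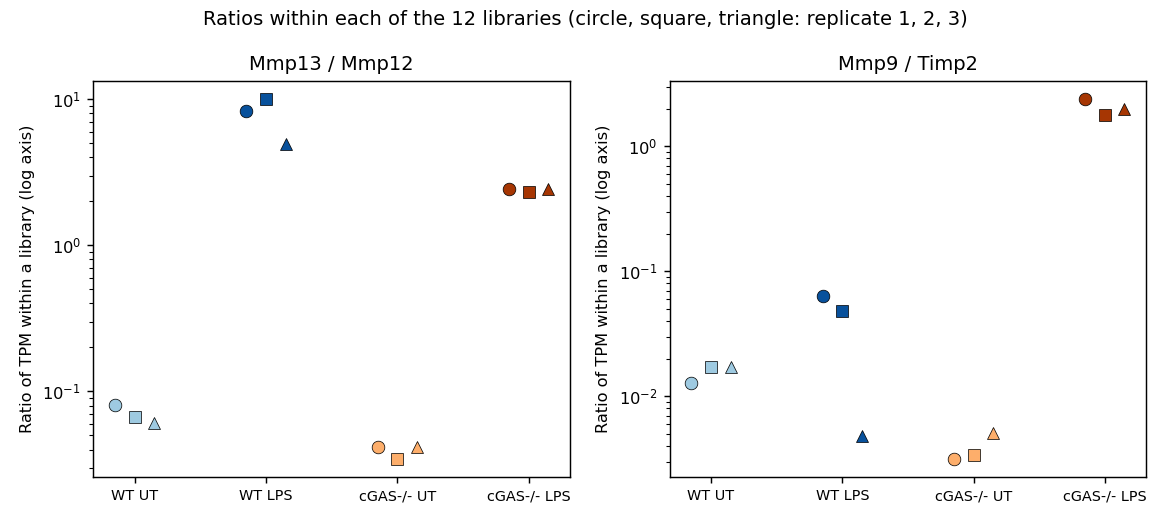
Ratio of Mmp13 to Mmp12 (left) and of Mmp9 to Timp2 (right) in TPM within each of the 12 libraries, on log axes. The left ratio is 4.97 to 10.0 in WT LPS and 2.32 to 2.45 in cGAS-/- LPS, and the right ratio is 1.76 to 2.39 in cGAS-/- LPS and at most 0.0638 elsewhere.

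Mmp13, Mmp12 and Mmp8 lie in a cluster of 10 metalloproteinase genes over 427 kb of chromosome 9, in the order Mmp13, Mmp12, Mmp1b, Mmp3, Mmp1a, Mmp10, Mmp8, Mmp27, Mmp20 and Mmp7. Neighbours moved in different directions with LPS. Mmp12 fell in both genotypes, Mmp8 rose in cGAS-/- cells, and Mmp10, a stromelysin at 2.39 TPM or less, fell in both (-1.17 in WT, adjusted p = 0.00227; -0.76 in cGAS-/- cells, adjusted p = 0.033). The call in cGAS-/- cells was lost in 10 of 21 alternatives, both rescalings among them, and the call in WT in 2. Mmp3, the other stromelysin, was listed at 0.635 to 0.910 TPM in WT UT and 0.966 to 1.88 TPM in WT LPS, but at 0 in all cGAS-/- UT samples and at 0.111 TPM or less in cGAS-/- LPS. It was lower in cGAS-/- cells without LPS (-0.85, adjusted p = 0.023) and with LPS (-1.15, adjusted p = 0.0051). Mmp3 passed the filter only through WT samples, so it could be called only as lower in cGAS-/- cells. Mmp1a, Mmp1b and Mmp20 were listed at 0 in all 12 samples, and Mmp7 was above 0 in 1, at 0.284 TPM.

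**Figure D4:**
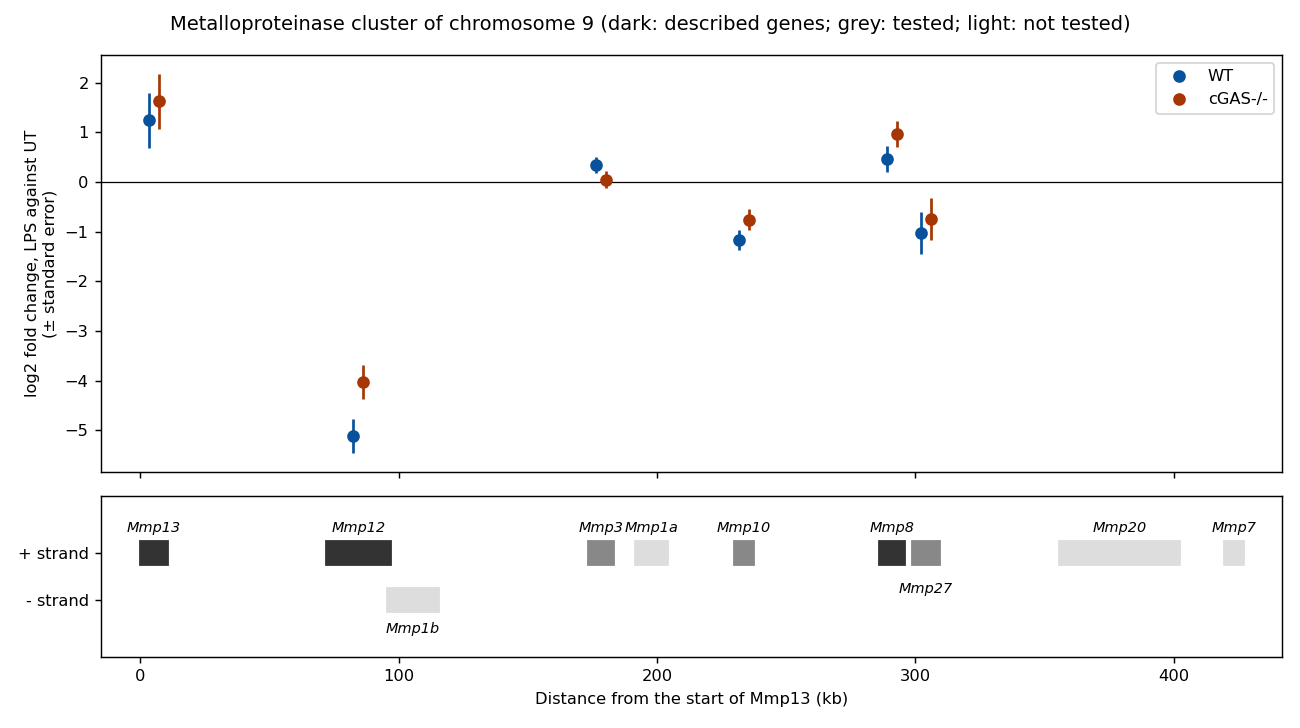
Limma log2 fold change, LPS against UT, with its standard error for the tested genes of the chromosome 9 metalloproteinase cluster (top), over a map of the 10 genes by strand and distance in kb from the start of Mmp13 (bottom). Mmp12 lies at -5.12 in WT and -4.03 in cGAS-/- cells, while Mmp13, upstream, lies at 1.24 and 1.63.

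Promoters of several of these genes are known for a binding site of AP-1, the Fos and Jun factor that stress and bacterial products activate. The letters TGANTCA, which read as the same pattern on both strands, were found in the 250 bases before the start of the canonical GENCODE transcript in 5 of 8 of the genes, and in 6.17% of 21751 protein-coding genes. An NF-kB pattern, GGG and CC with any 5 bases between them on either strand, was found in 4 of 8 and in 47.8% of all. The AP-1 letters stood before Mmp12, which fell with LPS, before Thbs1, which rose, and before Mmp19, which was not called, and were not in this window of Mmp8, Timp2 or Adam8. A match of letters is a description and not a bound site. The 80 bases before the start (150 for Thbs1, which held the pattern at 2 places) are given to show where the pattern lies in genes that rose, fell or were not called, with Mmp8 as the metalloproteinase without it. They are from GRCm39, plus strand, 5′ to 3′, with the AP-1 match in capitals.
Mmp9, chr2:164790059-164790138: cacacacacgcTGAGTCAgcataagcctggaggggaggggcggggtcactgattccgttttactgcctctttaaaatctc
Mmp12, chr9:7347294-7347373: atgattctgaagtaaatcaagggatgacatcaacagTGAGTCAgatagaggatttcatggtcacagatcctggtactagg
Mmp13, chr9:7272434-7272513: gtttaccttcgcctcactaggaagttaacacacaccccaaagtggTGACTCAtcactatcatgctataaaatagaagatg
Mmp8, chr9:7558377-7558456: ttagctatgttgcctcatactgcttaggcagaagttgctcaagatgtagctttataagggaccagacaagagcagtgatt
Mmp19, chr10:128626693-128626772: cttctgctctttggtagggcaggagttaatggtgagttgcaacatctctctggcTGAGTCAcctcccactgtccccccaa
Thbs1, chr2:117941824-117941973: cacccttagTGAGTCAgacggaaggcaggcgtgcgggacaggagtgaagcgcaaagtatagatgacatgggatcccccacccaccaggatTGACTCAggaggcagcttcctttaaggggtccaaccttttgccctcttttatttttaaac
The pattern began 69 bases before the start in Mmp9, 44 in Mmp12, 35 in Mmp13 and 26 in Mmp19. In Thbs1 it began at 141 and at 60.

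Other genes of matrix proteolysis were taken from 7 lists of 102 genes, of which 82 were in the table and 50 were tested. With LPS in WT cells 3 were called higher and 16 lower, beside 4.31% and 23.3% of all tested genes. The median of the 50 was -0.55 beside -0.46 over all tested genes. With median-ratio scaling 9 were higher and 11 lower, beside 993 and 1337 of all 11887. In cGAS-/- cells 6 were higher and 9 lower, beside 4.76% and 9.06%, a median of -0.29 beside -0.20. With median-ratio scaling these became 10 higher and 8 lower, beside 809 and 832. The inhibitors of other protease classes gave the largest rises. Cst7 (cystatin F), an inhibitor of lysosomal cysteine proteases, went from 1.48 to 2.42 TPM in WT UT to 36.5 to 89.9 TPM in WT LPS (4.42, SE 0.30, adjusted p = 4.79e-06), and from 0.157 to 0.462 TPM to 18.6 to 20.1 TPM in cGAS-/- cells (3.95, SE 0.30). Serpinb2, an inhibitor of urokinase, rose by 2.90 (SE 0.40) in WT and by 5.18 (SE 0.40) in cGAS-/- cells, where it reached 36.2 to 48.2 TPM. Ctsc, the cathepsin that activates granule serine proteases, rose by 1.71 (SE 0.44) in WT, by 2.32 without WT LPS replicate 3, and by 2.91 (SE 0.44) in cGAS-/- cells.

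Genes that fell with LPS came from several lists. Spp1, osteopontin, fell in WT (-2.64, SE 0.40) and cGAS-/- cells (-3.19, SE 0.40), and so did the membrane aminopeptidase Anpep (-3.01 and -2.15, SE 0.46 for both). In WT cells Lrp1, an endocytic receptor for protease and inhibitor complexes, fell by 2.53 on the log2 scale, the thrombospondin receptor Cd36 by 1.86, Tgfb1 by 1.71 and the lysosomal Ctsa by 1.43. Without WT LPS replicate 3 the WT values were -2.40 for Anpep, -1.67 for Lrp1 and -1.03 for Tgfb1, all called. Adam15, Adamtsl5, Ece1, Serpine2 and Elane were also lower there, between -1.18 and -0.68. The calls were lost in 17 of 22 alternatives for Ece1, among them the fit without WT LPS replicate 3, in 5 of 22 for Adam15, and in 7, 6 and 3 of 21 for Elane, Adamtsl5 and Serpine2. In cGAS-/- cells the lower genes included the integrin chain Itgav (-1.40, SE 0.28), Ctsd (-1.22, SE 0.31) and the sheddase Adam10 (-1.02, SE 0.30). Itgav (-1.13, adjusted p = 0.0131) and Ctsd (-1.25, adjusted p = 0.014) were also called lower in WT. The calls in cGAS-/- cells were lost in 14 of 22 alternatives for Adam10, in 8 for Ctsd and in none for Itgav. The higher ones included the integrin chain Itgam (1.66, SE 0.40), Rhbdf2, a partner of the sheddase ADAM17 (1.47, SE 0.42), and the plasminogen-binding enzyme Eno1 (1.29, SE 0.24), calls lost in 6, 11 and 0 of 22 alternatives. Of the matrix metalloproteinase list, 4 of 16 listed genes were tested, and in each genotype only Mmp10 was called.

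Between genotypes with LPS, 1 of the 50 genes was called higher and 4 lower, beside 1.36% and 1.00% of all tested genes. Serpinb2 was higher in cGAS-/- cells by 2.04 (SE 0.40, adjusted p = 0.0241). Ctsl, a lysosomal cathepsin, was at 684 to 1270 TPM in WT LPS and 251 to 256 TPM in cGAS-/- LPS (-1.81, SE 0.23, adjusted p = 0.0022). Cst7 (-1.63, adjusted p = 0.0197) and Ctss, a cathepsin of antigen processing (-0.77, adjusted p = 0.0229), were lower, and Mmp3 was given above. Over 22 alternatives the calls were lost in 7 for Serpinb2, 1 for Ctsl, 5 for Cst7 and 13 for Ctss, the replicate block among these last. Without WT LPS replicate 3, 3 were higher and 13 lower, beside 456 and 528 of all 11887. Without WT LPS replicate 2, 18 were higher and 5 lower, beside 2839 and 473. The balance of directions thus rested on single libraries. In UT cells 4 of the 50 were called, all lower in cGAS-/- (1.58% of all tested genes were): Ctsl (-1.09, adjusted p = 0.0368), Elane (-0.89, adjusted p = 0.0311), Mmp3 and Adam19 (-0.83, adjusted p = 0.0463). Each of these 4 calls was lost in 11 to 15 alternatives. Mmp3 and Elane passed the filter only through WT samples, so between genotypes they could be called only as lower in cGAS-/- cells. Leaving out WT LPS replicate 3 raised the number called in UT cells to 13 (137 higher and 496 lower of all 11887). Leaving out replicate 2 raised it to 7 (62 and 279 of all). It was 0 without WT UT replicate 1 or 2, without any 1 cGAS-/- UT sample and without cGAS-/- LPS replicate 1 or 2. For the interaction limma called 0 of 50, beside 0.732% higher and 0.168% lower of all, and 12 had an unadjusted p under 0.05. Without WT LPS replicate 2 it called 13, beside 1351 higher and 145 lower of all 11887. Without WT LPS replicate 3 it called 7, beside 347 and 195.

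**Figure D5:**
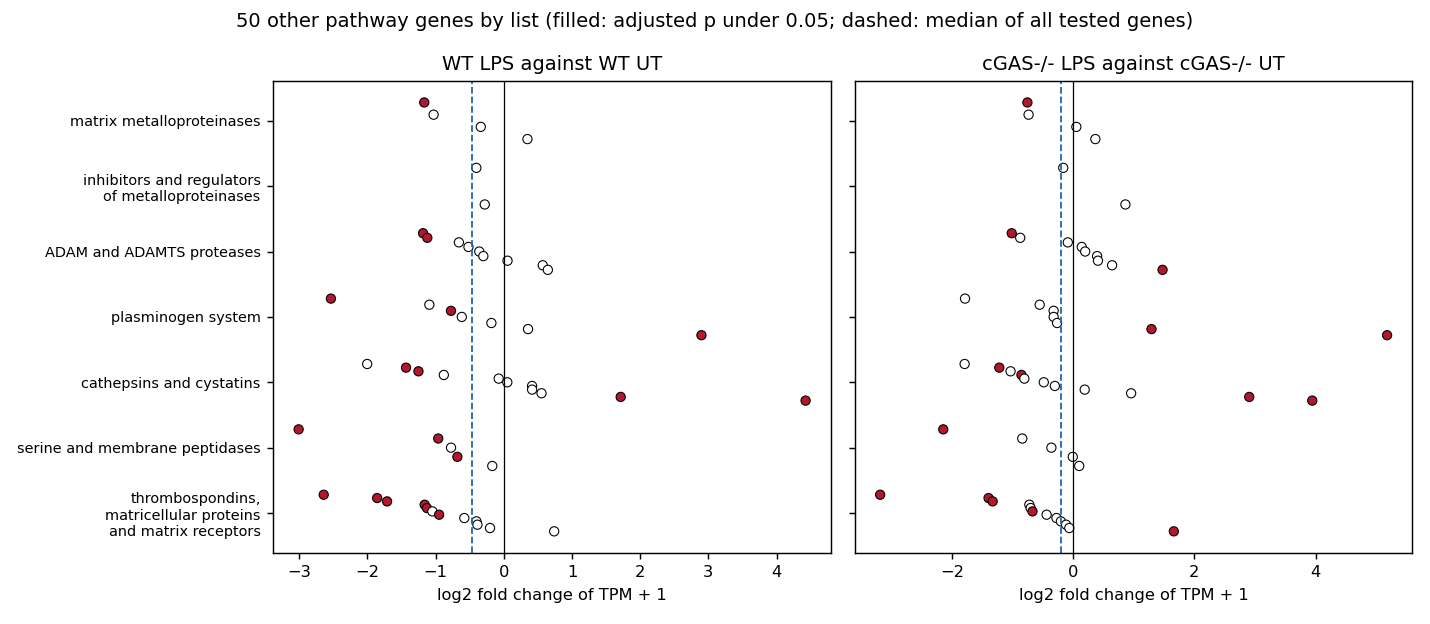
Limma log2 fold change of TPM + 1, LPS against UT, of the 50 other genes of matrix proteolysis by list, in WT (left) and cGAS-/- cells (right); red points have an adjusted p under 0.05 and the dashed line is the median of all tested genes. In WT 16 of the 19 called genes lie to the left of 0, and in cGAS-/- cells 9 of 15.

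Markers of other cells moved with some of these values. Of 8 osteoclast markers 6 were listed, and their sum was 185 to 194 TPM in WT UT, 3.80 to 39.5 TPM in WT LPS, 89.0 to 99.6 TPM in cGAS-/- UT and 11.97 to 12.8 TPM in cGAS-/- LPS. It thus fell with LPS as Mmp12 did, mostly through Atp6v0d2 and Ctsk. Acp5 went the other way in cGAS-/- cells, from 2.81 ± 0.245 TPM without LPS to 8.42 ± 0.537 TPM with it (SD, n = 3 each), and Calcr was at or under 0.0184 TPM in all samples. Of 9 stromal markers 8 were listed, and their sum was lower in cGAS-/- cells without overlap, as Mmp3 was. It was 8.40 to 9.93 TPM in WT UT against 2.40 to 4.36 TPM in cGAS-/- UT, and 6.03 to 17.6 TPM in WT LPS against 2.996 to 4.03 TPM in cGAS-/- LPS. Of the single markers only Col1a1 and Col1a2 were lower in cGAS-/- cells without overlap both in UT and with LPS. Dcn, the largest part of the highest WT LPS sum, was at 1.51 to 11.8 TPM in WT LPS and 1.60 to 2.14 TPM in cGAS-/- LPS. Postn went the other way in UT by its means, 0.171 TPM in WT and 0.358 TPM in cGAS-/- cells. The part of stromal cells in the Mmp3 values was not tested. Dendritic cell markers summed to 2.23 TPM or less. B cell markers summed to 2.37 to 3.30 TPM in WT LPS and 0.319 to 0.948 TPM in cGAS-/- LPS, and overlapped in UT. The part of osteoclast-like cells in the Mmp12 values was not tested.

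By Pearson correlation of log2(TPM + 1) over the 12 samples, the tested genes most like Mmp9 were Cd300e (r = 0.990), Fscn1 (r = 0.987), Tal2 (r = 0.982), Pik3r6 (r = 0.972) and Acot7 (r = 0.972). Cd300e, a receptor of myeloid cells, averaged 2.67 TPM in WT UT, 2.74 in WT LPS, 0.747 in cGAS-/- UT and 30.9 TPM in cGAS-/- LPS. Those most like Mmp12 were Gmpr (r = 0.994), Sptssa (r = 0.994), Abcb4 (r = 0.993), Man2a2 (r = 0.993) and Sord (r = 0.992), each lower with LPS in both genotypes by its means. The points share 12 libraries in 4 groups, and these values only describe the likeness.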

How the data were processed

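The 12 samples were grouped by the genotype and treatment of their labels. The submitters' processing notes name fastp, STAR, Kallisto and GRCm39. Per the methods, the authors mapped with STAR and quantified with Kallisto, and their own group comparisons used edgeR with limma. Versions of fastp, STAR and Kallisto are not given in the sources used here. The values deposited by the authors, named normalized counts, were treated as Kallisto TPM averaged by the authors over the transcripts of a symbol, a unit inferred from the values. The table holds no genes beyond part of chromosome 13, so Timp1, Mmp14, Plau and others were not analysed here. No pair of samples was identical.

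A filter kept the 11887 genes that reached 1 TPM in 3 or more of 12 samples, each sample having been rescaled to a total of 1000000 for that step. Limma 3.58.1 in R 4.3.3 was fitted to log2(TPM + 1) with 4 group means and a variance trend. The methods' added limit of 2 on the log2 fold change left 1 of the 9 genes between genotypes with LPS, 2 for LPS in WT and 4 for LPS in cGAS-/- cells. The longest transcript of each of the 9 genes was compared with transcripts of other genes by blastn 2.17.0, on the same strand and with low-complexity masking. Promoters of 8 of the 9 genes were searched, and the other is not reported here. The 9 genes and all lists were chosen with earlier results of these data known. Named genes are the 9, Cgas, in each comparison up to 3 called genes per list with the largest change, and the 5 most like Mmp9 and Mmp12. Other genes, such as markers, were named after their values were seen. Alternatives were pseudocounts of 0.1 and 5, no filter, a filter of 5, median-ratio scaling, quantile normalization, the 6 compared samples alone, a replicate block, no variance trend, sample weights and each sample left out.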

Additional observations from a re-analysis of the deposited data

Results flagged for a closer look

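The LPS effect on Mmp9 differed between the genotypes by the interaction term, at 5.34 on the log2(TPM + 1) scale in cGAS-/- minus WT (SE 0.51, limma adjusted p = 9.49e-04). All 3 cGAS-/- LPS samples were above all cGAS-/- UT samples, whereas WT LPS samples lay on both sides of the WT UT mean. The gene was among those chosen on this contrast, so the value is a description.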

How the results depend on the processing

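Of 45 differences of the 9 genes, 26 have their values in the text. Over these, 509 of 569 alternative values kept direction and side of the threshold, 22 lost a call, 32 gained one and 6 changed sign. Over the other 19, none of them called with all samples, 27 of 412 changed sign and 3 were called, none both. The changes of sign among the 26 were Mmp19 for LPS in WT, at 0.17 with median-ratio scaling, Mmp9 for LPS in WT, at 0.19 with median-ratio scaling, 0.18 with quantile normalization, 0.055 with sample weights and 0.18 without WT LPS replicate 3 (-0.61 to 0.18 with a sample left out), and Mmp13 between genotypes with LPS, at 0.062 without WT LPS replicate 2 (-1.36 to 0.062 with a sample left out). Over 36 differences of other genes of matrix proteolysis, 606 of 783 values kept their call, 177 lost it and none changed sign.

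Counts of called genes among those others depended on the fit, as did the counts over all tested genes. In UT cells the 4 became 2 with a pseudocount of 0.1, 2 without filter, 1 with a filter of 5, 24 with the 6 samples alone, 2 without variance trend and 25 with sample weights, and 0 to 13 with a sample left out, 9 to 14 having an unadjusted p under 0.05 where none was called. Between genotypes with LPS the 5 became 3 with a pseudocount of 0.1, 10 with median-ratio scaling, 11 with quantile normalization, 0 with the 6 samples alone (limma, 9 at an unadjusted p under 0.05) and 8 with sample weights, and 2 to 23 with a sample left out. For LPS in WT the 19 became 4 with the 6 samples alone, and 13 to 29 with a sample left out. For LPS in cGAS-/- cells the 15 became 36 with the 6 samples alone and 36 with sample weights, and 8 to 29 with a sample left out. For the interaction the 0 (12 at an unadjusted p under 0.05) became 2 with a pseudocount of 5, 1 without filter, 2 with median-ratio scaling, 1 with quantile normalization and 4 with sample weights, and 0 to 13 with a sample left out. The highest counts with a sample left out came without WT LPS replicate 2 or 3. The cause was not tested. Same-numbered samples did not vary together (correlations of -0.031 to 0.038), and with the replicate block the UT count went from 4 to 0 (15 at an unadjusted p under 0.05). WT LPS samples spread more than the other groups, and the pooled spread is then too small for them and too large for the rest. The depth is unknown.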
